A study of Homo sapiens with 7 samples.

Results

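The change in open chromatin between definitive endoderm (hDE) and the human embryonic stem cells (hESC) that precede it was read from ATAC-seq peak lists. The members were chosen by sample title, the 2 libraries titled hDE and the 2 titled hES, which are 4 of the 7 libraries of the study. All 4 were labelled H1, a widely used line of embryonic stem cells, and were marked as re-analysed from 1 earlier series. The labels name no genetic change, agent or day for either stage. They also do not say whether the 2 libraries of a stage were separate cultures, so p-values and replicate ranges below cover the spread between these libraries alone, and that spread may be technical. The other 3 libraries, 2 of anterior foregut endoderm (hAFE) and 1 of pharyngeal foregut endoderm (hPFE), were used for the common set of regions and to see which regions had a peak later.

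Definitive endoderm is the germ layer that lines the gut and gives rise to lung, liver, pancreas and thyroid. In the embryo, Nodal and WNT signals carry epiblast cells through a mesendoderm state in the primitive streak, marked by EOMES, TBXT, MIXL1 and GSC, after which SOX17, FOXA2, GATA4 and GATA6 mark the endoderm. Pluripotency is held by POU5F1 (OCT4), SOX2 and NANOG. ATAC-seq reads open chromatin from the places where the transposase Tn5 can cut, and gene starts as well as distant enhancers appear as peaks.

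The lists held 299043 and 299364 peaks in hDE and 299100 and 299333 peaks in hESC, totals set by a limit of 300000 peaks per library. The lowest deposited −log10 p was 2.64 and 8.86 in hDE and 2.23 and 4.77 in hESC. The absence of a peak, on which gained and lost regions below rest, therefore had a different limit in each library. No read totals were given, but the genome-wide background of each library, which scales with its depth, could be worked out from the peak values. It was 4.58 and 7.94 counts in hDE and 2.11 and 4.62 counts in hESC, so hDE replicate 2 was the deepest library and hESC replicate 1 the shallowest. Peak heights below are summit heights in multiples of that background. Strict regions are the 50000 of each library with the highest deposited −log10 p, and the strict regions of all 7 libraries merged into 129718 regions. The hDE libraries shared 75.8% and 74.4% of their strict regions with each other and the hESC libraries 73.2% and 72.2%, whereas an hDE and an hESC library shared between 48.8% and 58.6%.

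More regions were gained than lost in hDE. A region was gained where it was strict in both hDE libraries and had no deposited peak in either hESC library, and lost where the reverse held. These rules gave 7050 gained regions, 5.43% of all, and 1496 lost regions, 1.15% of all, beside 20464 stable regions that were strict in all 4 libraries. Gained and lost are names of classes throughout, with no test. The mean background was lower in hESC than in hDE, and its part in the excess of gained regions was not tested. In the pair of nearly equal background, hDE replicate 1 and hESC replicate 2, 9915 regions were gained and 6598 lost. Leaving out 1 library at a time gave from 8088 to 12929 gained regions, the highest without hDE replicate 1. The number of lost regions was then 2266 and 2715 without hDE replicates 1 and 2, and 3954 and 4322 without hESC replicates 1 and 2. With fewer libraries the rules set fewer conditions, so a rise over the main counts says little by itself. The balance of the classes differed between pairs of single libraries, which all set the same number of conditions. Between hDE replicate 2 and hESC replicates 1 and 2, 16841 and 14717 regions were gained and 5887 and 5637 lost. Between hDE replicate 1 and hESC replicate 1, 11846 were gained and 7163 lost. The cause was not tested.

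Both classes lay away from gene starts. For 4162 of the 19974 protein-coding genes no start was given, and both ends of the gene body stood in for it here. Such a start lay within 1 kb of 1.21% of gained regions (85 regions) and of 2.41% of lost regions (36 regions), against 50.1% of stable regions and 12.7% of all regions. More than 100 kb from any such start lay 48.2% of gained and 42.4% of lost regions, against 15.4% of stable regions and 34.3% of all. Gene bodies held 41.4% of gained and 41.8% of lost regions, and 70.2% of stable ones. Stable regions were wider, with a median of 1018.5 bp, against 762 bp for gained and 599 bp for lost regions. When regions counted as strict from 10 times the background upwards, 2.5% of gained and 10.2% of lost regions lay near a start.

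**Figure D1:**
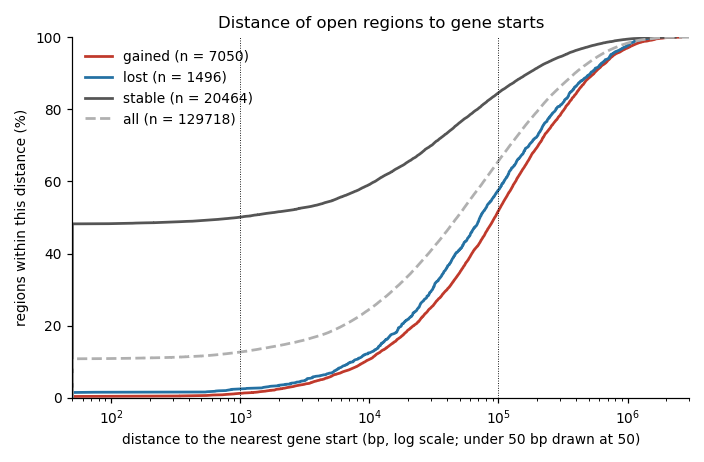
Share of regions (vertical axis, percent) within a given distance of the nearest start of a protein-coding gene (horizontal axis, bp, log scale) for regions gained in hDE, lost in hDE, stable in all 4 libraries and all regions. The curves of gained and lost regions are at 1.21% and 2.41% at 1 kb, where that of stable regions is at 50.1%.

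Regions with a peak at both stages also changed in height. The 57129 regions with a peak in all 4 libraries were fitted with limma on the log2 height, centred on the median of each library. At a Benjamini-Hochberg adjusted p below 0.05, 3338 regions were higher in hDE, 5.84% of those fitted, and 1893 were lower, 3.31%. The median log2 difference, hDE minus hESC, was 1.91 among the higher and −1.69 among the lower regions, and no difference smaller than 1.26 was called. All 3338 higher regions stood above both hESC libraries in both hDE libraries, and 1892 of the 1893 lower ones stood below both. Among all fitted regions, 14112 lay above in this way and 12901 lay below. The log2 difference between replicates had an SD of 0.67 in hDE and 0.64 in hESC, and that between stages an SD of 0.83. The fit draws the variance of a region toward that of regions of like height, so the SE hardly followed a region's own replicates. The FOXA2 region 1093 bp from the nearer gene end, with 8.06 and 43.9 in hESC, had an SE of 0.45. The SOX17 region 13516 bp from the nearer gene end, with 7.58 and 9.31 in hESC, had 0.44. An SE or adjusted p below is thus no measure of replicate agreement at its region.

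The number of calls depended on the scaling and on single libraries. With the median as centre 63.8% of calls were higher in hDE, and with centring on regions near gene starts 55.3% (1967 higher and 1591 lower), which moved the median log2 difference by −0.19. With the genome-wide background alone and no centring, 97 were higher and 4 lower. The lowest counts with a library left out were 1354 higher and 491 lower regions, without hESC replicate 2, followed by 1600 and 830 without hDE replicate 2, and 1088 regions were lower without hESC replicate 1. A gene start lay within 1 kb of 3.15% of higher and 7.82% of lower regions, against 26% of those fitted.

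**Figure D2:**
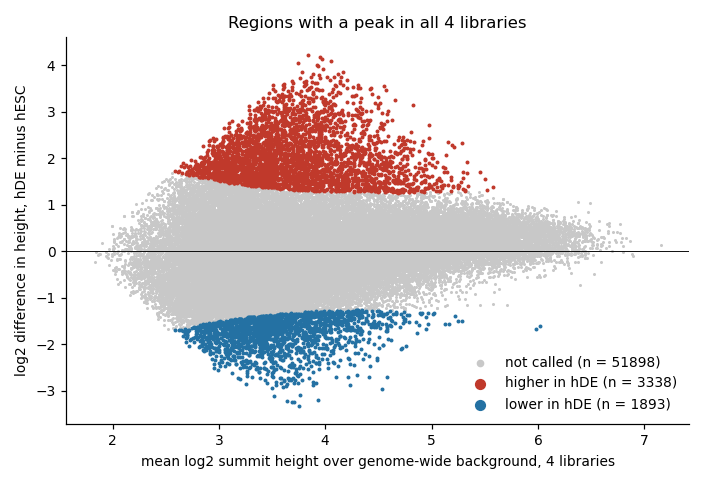
Log2 difference in summit height, hDE minus hESC (vertical axis), against the mean log2 height over the 4 libraries (horizontal axis) for the 57129 regions with a peak in all 4. The 3338 regions called higher in hDE lie above the cloud of uncalled ones and the 1893 called lower lie below it, all at a difference of at least 1.26 in size.

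The labelled stages were checked against 10 marker genes each. Of the endoderm markers (SOX17, FOXA2, GATA4, GATA6, CXCR4, EOMES, CER1, HHEX, KIT and LHX1), 9 had a gained or a higher region and none had a lost or a lower one, and HHEX had neither. They held 10 gained and 22 higher regions among 112, and 72 and 54 strict regions in hDE, against 24 and 32 in hESC. Of the stem cell markers, 6 had a lost or a lower region, and CRIPTO and PRDM14 had a higher one. They held 34 and 17 strict regions in hDE, against 43 and 48 in hESC. Over all genes with a region, 15.7% had a gained and 4.62% a lost one, and over those with a fitted region 9.07% had a higher and 7.56% a lower one. All 17727 genes held 85199 regions, so a marker gene had more regions than most and more chances of a call. Counted by region over all genes, 4.29% were gained and 1.01% lost, and of those fitted 4.10% were higher and 3.19% lower. In bulk chromatin, fewer cells with an open site and a less open site in each cell cannot be told apart.

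SOX17, the SRY-box factor of definitive endoderm, had its largest change 13516 bp from the nearer end of its gene body, on chromosome 8 from 54443259 to 54444419 (hg38). That region reached 60.3 and 95.0 times the background in hDE, against 7.58 and 9.31 times in hESC. Both hDE libraries stood far above both hESC libraries (log2 difference 3.25, SE 0.44, limma adjusted p = 1.68e-10), and the call held with each library left out in turn. The region over the lower end of the SOX17 gene body, at 54457935, reached 38.2 and 57.1 in hDE, against 10.9 and 14.9 in hESC (log2 difference 1.95, SE 0.44, limma adjusted p = 4.00e-04), and this call was lost without hESC replicate 2 and on the deposited fold scale described below. SOX17 had 3 higher regions and no gained one, since each of these sites already carried a peak in hESC. The higher SOX17 region from 54442992 to 54443180 lies just beside the one with the largest change and may not be a separate site.

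The GATA factors, zinc finger proteins of early endoderm and heart, changed at several sites. GATA4 had 4 higher regions, and the largest difference lay inside the gene body, 15395 bp from its nearer end, with 35.2 and 52.3 in hDE, against 6.16 and 11 in hESC (log2 difference 2.46, SE 0.45, limma adjusted p = 3.69e-06). The GATA4 groups did not overlap there, and the call held with each library left out. GATA6 had 4 higher regions and 1 gained one, 10010 bp from the start at 28.2 and 48.1 in hDE. The higher GATA6 regions starting at 22193506 and 22194117 had the same height, 20.9, in hDE replicate 2. Fold and local background were equal there too (7.35 and 2.74), so 1 peak of hDE replicate 2 appears to lie over both. They may be 1 site counted as 2 regions, here and in the marker and list counts. The GATA6 start region, on chromosome 18 from 22168378 to 22170605, reached 50.7 and 60.2 in hDE, against 16.6 and 28.4 in hESC. Both hDE libraries stood above both hESC libraries (log2 difference 1.43, SE 0.45, limma adjusted p = 0.0212), but the call was lost without hDE replicate 1, hESC replicate 1 or hESC replicate 2. FOXA2, a pioneer factor that opens chromatin in endoderm, had 4 higher regions and 1 gained one, 15883 bp from the nearer end of the gene body at 15.3 and 50.1 in hDE. The region inside FOXA2 and 23 bp from its upper end, on chromosome 20 from 22584114 to 22585467, reached 37.3 and 61.2 in hDE, against 11.4 and 20.3 in hESC (log2 difference 1.73, SE 0.44, limma adjusted p = 0.00239), a call that was lost without either hESC library.

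Genes of the mesendoderm state had open sites in hDE as well. EOMES, the T-box factor of the primitive streak, had 3 gained and 3 higher regions, and the tallest gained one (the tallest by its lower library, here and below), 7655 bp from the start, stood at 44.5 and 78.6 in hDE. The largest EOMES difference lay 6406 bp from the start, with 47.8 and 68.8 in hDE, against 11.8 and 14.1 in hESC (log2 difference 2.23, SE 0.44, limma adjusted p = 3.13e-05), and was lost without hESC replicate 2. On the deposited fold scale that EOMES difference was 0.22 and was not called. The EOMES start region was open at both stages and was not called (40.2 and 59.7 in hDE, against 21.8 and 24.2 in hESC, limma adjusted p = 0.0819). GSC, the homeobox gene of the organizer, had 3 gained regions, the tallest 5959 bp from its start at 37.1 and 39.5 in hDE. LHX1, a LIM homeobox gene of the anterior streak, had 1 gained region 73673 bp from the nearer gene end (43.7 and 43.1 in hDE) and 2 higher ones.

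TBXT (brachyury), the T-box factor of streak and mesoderm, had 2 higher regions. The TBXT region 26217 bp from the start reached 17.5 and 41.8 in hDE, against 4.27 and 5.19 in hESC (log2 difference 2.60, SE 0.48, limma adjusted p = 5.48e-06) and held with each library left out. The TBXT start region was nearly level, with 17.9 and 22.7 in hDE, against 14.2 and 24.7 in hESC, and the groups overlapped. MIXL1 and HHEX, homeobox genes of streak and anterior endoderm, had no gained or higher region. The MIXL1 start region stood at 26 and 25.8 in hDE, against 12.3 and 18.8 in hESC (limma adjusted p = 0.277), and the HHEX start region at 24.0 and 17.4 in hDE, against 14.2 and 11.3 in hESC (limma adjusted p = 0.357). On these heights the hDE libraries were above the hESC libraries in both genes, but neither difference was called. Once centred on the library medians, as in the test, the stages overlapped at HHEX.

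CER1, a secreted antagonist of Nodal, BMP and WNT made by anterior endoderm, had 3 gained regions and 1 higher one over its start. The gained region 563 bp from the CER1 start, on chromosome 9 from 14723296 to 14723768, stood at 39.1 and 51.5 in hDE. CXCR4, the chemokine receptor used to sort definitive endoderm, had 1 gained region 18743 bp from its start (12 and 28.5 in hDE). The CXCR4 start region was open at both stages, with 34.3 and 38.7 in hDE, against 21.3 and 32.5 in hESC, and was not called (log2 difference 0.55, SE 0.45, limma adjusted p = 0.569).

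**Figure D3:**
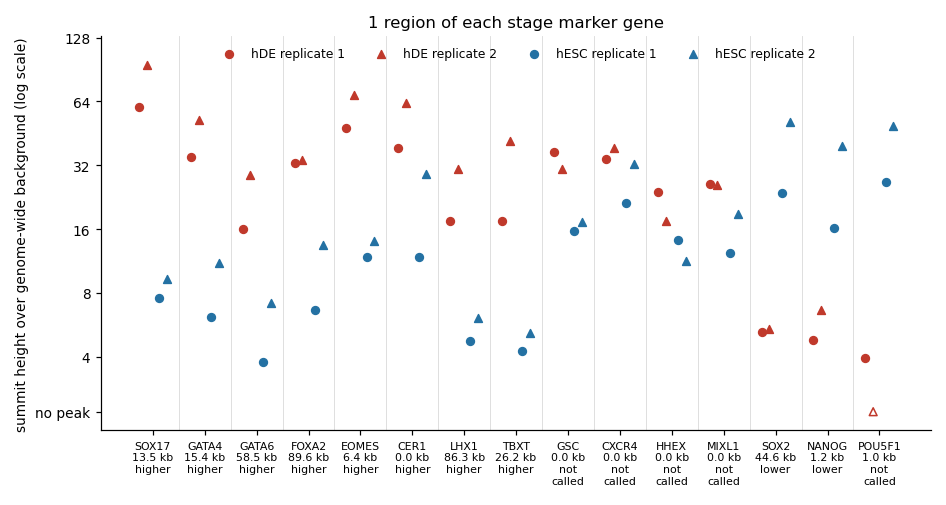
Summit height over the genome-wide background (vertical axis, log scale) in each hDE and each hESC library for 1 region of each of the 15 stage marker genes, namely the region called higher or lower with the largest difference or, where none was called, the one nearest the start, with the distance in kb to the start (the nearer gene end for SOX17, GATA4, FOXA2, LHX1 and POU5F1). At SOX17 the hDE libraries stand at 60.3 and 95.0 and the hESC libraries at 7.58 and 9.31, and at SOX2 the hDE libraries stand at 5.24 and 5.42 and the hESC libraries at 23.7 and 51.1.

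Most of the higher calls at the endoderm markers rest on the scale of height. The deposited fold enrichment divides a summit by the background around the peak, and that local background was higher in hDE at some endoderm genes. Of the 22 higher calls at the 10 endoderm markers, 3 were also made on the fold scale and 3 turned sign, and of the 6 lower calls at the stem cell markers 2 were also made. None of the 4 higher calls at GATA6 and of the 3 at EOMES was made on the fold scale, where the GATA6 start region differed by 0.47 and the FOXA2 region near the upper gene end by 1.03. At the CER1 start the local background was 4.91 and 8.76 times the genome-wide background in hDE, against 1.08 and 1.95 times in hESC, and the log2 difference of the CER1 region was −0.62 on the fold scale where it was 1.48 on the height scale. The sign also turned at EOMES 9665 bp from the start (−0.77 on the fold scale and 1.35 on the height scale), at SOX17 14755 bp from the nearer gene end (−0.52 and 1.5) and at BMP2 59083 bp away (−0.37 and 2.09). None of these 4 regions was called on the fold scale. Over the 188 calls at regions of named genes and the largest differences, 69 were also made on that scale, 115 were not and 4 turned sign. The SOX17 region 13516 bp from the nearer gene end was called on both scales, with 1.23 on the fold scale.

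The pluripotency genes changed at part of their sites. SOX2, an SRY-box factor of the pluripotency core, had its largest change 44629 bp from the start, on chromosome 3 from 181756554 to 181757199. Heights there fell to 5.24 and 5.42 in hDE, against 23.7 and 51.1 in hESC, far apart (log2 difference −2.63, SE 0.46, limma adjusted p = 1.47e-06), and the call held with each library left out. A lost region lay beside it, 44116 bp from the SOX2 start, with 13.7 and 19.3 in hESC. The SOX2 start region was still open in hDE and was not called (15.3 and 16.1 in hDE, against 24.6 and 47.8 in hESC, limma adjusted p = 0.13).

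NANOG, the homeobox factor of the core, had 2 lower regions and none lost. The NANOG region 1243 bp from the start stood at 4.80 and 6.68 in hDE, against 16.1 and 39.4 in hESC (log2 difference −2.08, SE 0.47, limma adjusted p = 4.34e-04), and this call was lost without hESC replicate 2. POU5F1 had 1 lost region 9759 bp from the nearer gene end, with 9.00 and 27.9 in hESC. A second POU5F1 region, 997 bp from that end, stood at 3.93 in hDE replicate 1 and had no peak in hDE replicate 2, against 26.5 and 48.9 in hESC. It belongs to no class because of the weak peak in hDE replicate 1.

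Over the 30 genes of the pluripotency list, 6 of 243 regions were gained and 9 lost, and of 118 fitted regions 4 were higher and 16 lower. OTX2, a homeobox factor of primed pluripotent cells and of anterior endoderm, held 2 of the lost and 4 of the lower regions beside 1 gained one. The OTX2 region 83941 bp from the start stood at 4.15 and 4.41 in hDE, against 18.0 and 55.8 in hESC (log2 difference −2.81, SE 0.48, limma adjusted p = 4.98e-07). Lower regions also lay at DPPA4, a chromatin factor of pluripotent cells (log2 difference −2.05), at TERF1, a telomere-binding protein (−2.49), at the growth factor gene FGF2 (2 regions, −2.11 and −1.33) and at the zinc finger gene ZFP42 (−1.57). The 4 higher regions were at KLF4, a reprogramming factor (3.14), the Nodal antagonist LEFTY1 (1.84), the Nodal co-receptor CRIPTO (1.51) and PRDM14 (1.38), a repressor that also had 1 lower and 1 lost region. The calls named at OTX2, DPPA4, TERF1 and KLF4 held with each library left out in turn. On the fold scale those at DPPA4, FGF2, ZFP42, LEFTY1, CRIPTO and PRDM14 were not made, and over the list 1 region was higher and 7 were lower.

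At the lists of endoderm formation, more regions were gained or higher than lost or lower. Over all regions assigned to a gene, 4.29% were gained and 1.01% lost, and of those fitted 4.10% were higher and 3.19% lower. The 20 mesendoderm and primitive streak genes had 18 of 135 regions gained (13.3%) and none lost, with 13 of 69 fitted regions higher and 3 lower. The 22 endoderm transcription factors had 13 of 255 gained (5.10%) and 4 lost, with 27 of 121 fitted regions higher (22.3%) and 6 lower. The 22 endoderm surface and secreted markers had 28 of 227 gained (12.3%) and none lost, with 11 of 75 fitted regions higher and 1 lower. CER1, BMP2, LHX1 and other genes stand in more than 1 list, and all lists were written with earlier results of these data known, so the counts are no independent evidence of a direction.

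The size of the shift in these lists depended on the scale. The median log2 difference in height was 0.45, 0.32 and 0.47 in the mesendoderm, endoderm factor and surface marker lists, against 0.03 over all genes. With centring on gene starts it was 0.26, 0.12 and 0.28, against −0.16, and on the deposited fold scale 0.05, −0.03 and −0.07, against −0.004. The calls fell with the scale as well. With centring on gene starts 8 mesendoderm regions were higher and 2 lower, 18 and 5 at the endoderm factors and 10 and 0 at the surface markers, against 1043 and 1178 over all genes. On the fold scale it was 1 and 1, 9 and 1, and 3 and 0, against 767 and 588 over all genes, so the mesendoderm list had no excess of higher regions there. The number of strict regions gives a view by library. The endoderm factors had 111 and 85 strict regions in hDE, against 66 and 71 in hESC, the surface markers 100 and 95 in hDE, against 61 and 47 in hESC, and the pluripotency list 99 and 66 in hDE, against 118 and 129 in hESC. The stages did not overlap in these 3 lists, but an exact permutation test of 2 libraries against 2 cannot give a two-sided p below 0.3333. Of all genes with a region, 10.2% had more strict regions in both hDE libraries than in either hESC library and 13.2% had fewer. The 23 housekeeping genes with a region had 49 and 33 in hDE, against 49 and 51 in hESC. None of their regions was gained or lost, and of 60 fitted ones 1 was lower and none higher. Over all genes the strict regions numbered 36660 and 32734 in hDE, against 36071 and 39034 in hESC, with the lowest number in hDE replicate 2.

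**Figure D4:**
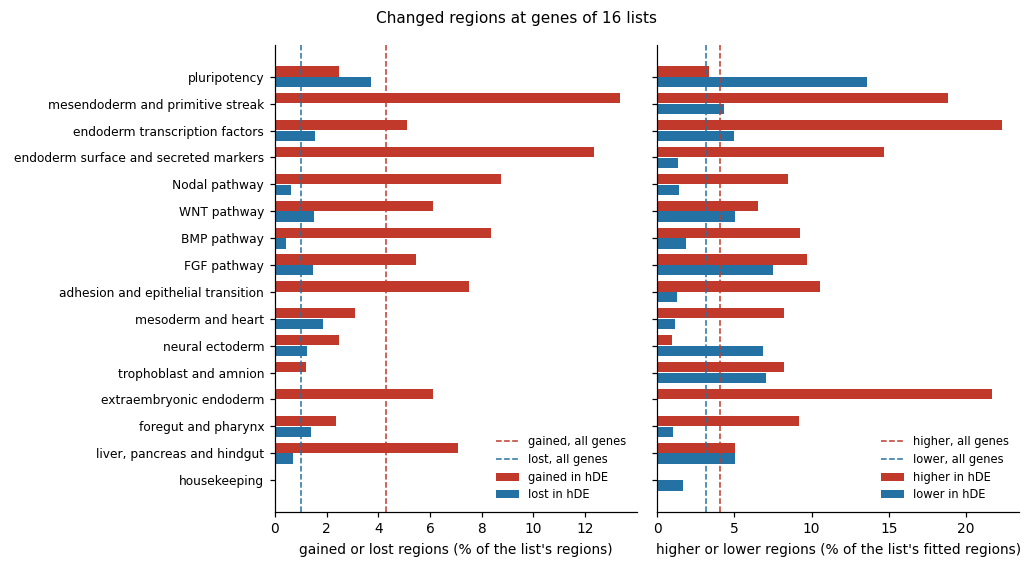
Percent of regions gained or lost in hDE and percent of fitted regions higher or lower in hDE at the genes of the 16 lists, with dashed lines for all genes (4.29% gained, 1.01% lost, 4.10% higher and 3.19% lower). The mesendoderm list reaches 13.3% gained and the endoderm transcription factors 22.3% higher, and the pluripotency list reaches 13.6% lower.

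Among the endoderm transcription factors, PRDM1 (BLIMP1), a repressor active in endoderm and germ cells, had 3 gained and 3 higher regions. The gained PRDM1 region 5089 bp from the start stood at 30.6 and 58.3 in hDE. KLF5, a zinc finger factor of gut epithelium, reached 35.6 and 60.3 in hDE, against 4.74 and 7.14 in hESC at 14825 bp from a start (log2 difference 3.07, SE 0.45, limma adjusted p = 3.92e-09). The KLF5 call held with each library left out. TCF7L2, a WNT effector, had 3 gained, 2 lost and 1 higher region.

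Among surface and secreted markers, NRP1, a co-receptor for semaphorins and VEGF, had 5 gained regions and 1 higher one. The gained NRP1 region inside the gene body, 2958 bp from the nearer end, stood at 39.96 and 52.6 in hDE. LGR5, an R-spondin receptor of gut stem cells, had 4 gained and 1 higher region, and HAS2, a hyaluronan synthase, had 3 gained. CPE, a carboxypeptidase of the secretory pathway, had a higher region 4821 bp from its start, with 27.3 and 54.2 in hDE, against 5.69 and 4.76 in hESC (log2 difference 2.96, SE 0.46, limma adjusted p = 2.91e-08). The CPE call was not made on the fold scale (0.87), and the local background was 4.06 and 6.97 times the genome-wide one in hDE, against 1.29 and 1.03 times in hESC. TRPA1, an ion channel, had 2 gained regions, the taller at 34.9 and 84.6 in hDE. FGF17, a growth factor, had 2 gained regions 118 and 1477 bp from the nearer end of its gene body, at 22.5 and 38.2 and at 26.9 and 39.4 in hDE, and no strict region in hESC.

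Signalling genes were set beside all genes. Over these 4.29% of regions were gained and 1.01% lost, and of those fitted 4.10% were higher and 3.19% lower. In this order the shares were 8.75%, 0.625%, 8.45% and 1.41% in the Nodal list and 6.12%, 1.53%, 6.52% and 5.07% in the WNT list. They were 8.37%, 0.418%, 9.26% and 1.85% in the BMP list and 5.47%, 1.49%, 9.68% and 7.53% in the FGF list. In each of these lists the strict regions per library overlapped between the stages. In the Nodal list of 22 genes, 14 of 160 regions were gained and 1 lost, and 6 of 71 fitted regions were higher and 1 lower (2 and 2 on the fold scale). PCSK5, a convertase of secreted precursors, had 4 gained regions, the tallest at 23.6 and 37.3 in hDE, and LEFTY2, a Nodal antagonist, had 2. The region over the upper end of the LEFTY1 gene body was higher, at 23.4 and 33.0 in hDE, against 7.58 and 8.87 in hESC (log2 difference 1.84, SE 0.46, limma adjusted p = 0.00155, lost without hDE replicate 1 or hESC replicate 2 and on the fold scale). The single lower region lay at the ligand gene NODAL, 13552 bp from its start, with 8.73 and 11.6 in hDE, against 17.1 and 48.9 in hESC (log2 difference −1.44, SE 0.45, limma adjusted p = 0.0195, lost without hDE replicate 2 or hESC replicate 2 and on the fold scale).

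In the WNT list of 32 genes, 20 of 327 regions were gained and 5 lost, and 9 of 138 fitted regions were higher and 7 lower, counts that became 3 and 5 with centring on gene starts and 2 and 1 on the fold scale. The antagonist genes DKK1 and FRZB had 3 and 2 gained regions, and the feedback inhibitor gene AXIN2 had 2. SFRP2, a secreted WNT modulator, had 2 gained and 2 lost regions between 829 and 41468 bp from its start. The lost SFRP2 region nearest the start had 35.1 and 44.4 in hESC, and the gained one farthest away had 15.9 and 52.8 in hDE.

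In the BMP list of 23 genes, 20 of 239 regions were gained and 1 lost, and 10 of 108 fitted regions were higher and 2 lower, counts that became 4 and 1 with centring on gene starts and 1 and 0 on the fold scale. BMP2, a ligand, had 4 gained and 2 higher regions between 57022 and 89866 bp from the nearer end of its gene body, and the tallest gained one stood at 39.5 and 63.7 in hDE. The ligand gene BMP5 and the receptor gene BMPR1B had 3 gained regions each, and the antagonist gene NOG had 2. In the FGF list of 20 genes, 11 of 201 regions were gained and 3 lost, and 9 of 93 fitted regions were higher and 7 lower (6 and 9 with centring on gene starts, 3 and 4 on the fold scale). FGFR2, a receptor, had 2 gained, 2 higher, 1 lost and 1 lower region, and its lower region, 12575 bp from a start, stood at 5.24 and 4.28 in hDE, against 19.0 and 57.8 in hESC (log2 difference −2.73, SE 0.47, limma adjusted p = 7.97e-07). FGFR1 had 1 gained, 1 lost and 2 lower regions, and SPRY2, a feedback inhibitor, had 2 gained, 1 higher and 1 lost.

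The adhesion and epithelial transition list had 13 of 173 regions gained and none lost, and 8 of 76 fitted regions were higher and 1 lower (5 and 0 on the fold scale). These were 7.51% gained, 10.5% higher and 1.32% lower, against 4.29%, 4.10% and 3.19% over all genes. CDH2 (N-cadherin), which replaces E-cadherin as cells leave the epiblast, had 3 gained and 2 higher regions. The larger CDH2 difference lay 28229 bp from a start, on chromosome 18 from 28064870 to 28066086, with 38.4 and 69.9 in hDE, against 3.79 and 5.19 in hESC (log2 difference 3.62, SE 0.46, limma adjusted p = 3.76e-12), and was called under all 12 alternatives fitted. LAMA1, a laminin chain of basement membranes, had 4 gained regions, the tallest at 32.5 and 46.2 in hDE, and GRHL2, an epithelial transcription factor, had 2. ITGB1, an integrin chain, and EPCAM, an epithelial adhesion protein, each had a higher region, with log2 differences of 2.74 and 2.78. The single lower region was over the start of CLDN4, a tight junction protein.

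Lists of other cell types that the cultures could hold were counted too. The gained share was 2.47% in the neural, 1.22% in the trophoblast, 3.11% in the mesoderm and 6.11% in the extraembryonic endoderm list, against 4.29% over all genes. In the same order 0.98%, 8.24%, 8.24% and 21.7% of fitted regions were higher, against 4.10%. The lower ones were 6.86%, 7.06%, 1.18% and 0%, against 3.19%. The neural ectoderm list had 4 of 162 regions gained and 2 lost, both lost ones at the eye and brain factor PAX6, and of 102 fitted regions 1 was higher and 7 lower. The trophoblast and amnion list had 2 of 164 gained and none lost, with 7 of 85 fitted regions higher and 6 lower. The mesoderm and heart list had 5 of 161 gained and 3 lost, with 7 of 85 higher and 1 lower, and 2 of its gained regions lay at FOXC1 and 4 of its higher ones at KDR, the VEGF receptor of early mesoderm. The extraembryonic endoderm list had 11 of 180 gained and none lost, with 18 of 83 higher and none lower. Of those 18, 15 lay at GATA4, GATA6, SOX17 and FOXA2, which definitive endoderm shares, and the others at AMN, LAMB1 and TTR. On the fold scale 5 were higher and none lower in the extraembryonic endoderm list, 3 and 0 in the mesoderm list, 4 and 5 in the trophoblast list and 0 and 1 in the neural list. Strict regions numbered 71 and 58 in hDE, against 79 and 78 in hESC, at the neural list, and 58 and 46 in hDE, against 61 and 59 in hESC, at the trophoblast list. They numbered 71 and 71 in hDE, against 65 and 61 in hESC, at the mesoderm list, and 82 and 73 in hDE, against 52 and 53 in hESC, at the extraembryonic endoderm list. The part of other cell types in the results above was not tested.

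Genes of later gut regions were counted in the same way. Over all genes 4.29% of regions were gained and 1.01% lost, and of those fitted 4.10% were higher and 3.19% lower. In this order the shares were 2.36%, 1.42%, 9.18% and 1.02% in the foregut and pharynx list. They were 7.09%, 0.709%, 5.06% and 5.06% in the liver, pancreas and hindgut list. The foregut and pharynx list had 5 of 212 regions gained and 3 lost, and 9 of 98 fitted regions were higher and 1 lower, counts that became 4 and 1 with centring on gene starts and 2 and 1 on the fold scale. PAX9, a factor of the pharyngeal pouch lineage, had a pair of gained regions, at 23.1 and 35.9 and at 16.4 and 36.9 in hDE, and the homeobox gene MEIS2 had 2. The liver, pancreas and hindgut list had 10 of 141 regions gained and 1 lost, with 4 of 79 fitted regions higher and 4 lower (1 and 4 with centring on gene starts, 1 and 2 on the fold scale).

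Among all genes, CELF2, an RNA-binding splicing regulator, had the most gained regions, 8 of its 38, with 15 and 15 strict regions in hDE, against 6 and 5 in hESC. Its tallest gained region, 66054 bp from a start, reached 27.5 and 64.4 in hDE. PDE4D, a phosphodiesterase gene, had 6 gained regions of its 63. NRP1, DDX18, ELMO1, NRXN3, PTPN13, ZBTB20, NREP and MAN1A1 had 5 each, of 21, 15, 24, 36, 11, 46, 26 and 17 regions in this order. ELMO1, a regulator of cell migration, also had a region 65785 bp from a start with 41.5 and 72.5 in hDE, against 7.11 and 6.93 in hESC (log2 difference 3.04, SE 0.45, limma adjusted p = 3.24e-09), called under all 12 alternatives fitted. At least 3 gained regions were found at 175 genes, whereas 43 genes had 2 lost ones and no gene had more. These counts depend on the limit for strict regions. With 25000 per library they moved by more than 1.5 times at all 20 genes named for their counts, and with 10 times the background as the limit at 12 of the 20.

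At the other end stood 10 genes with 2 lost regions each, picked from 43 by their tallest lost region: SFRP2, SGK1, ZFHX3, LHX9, RTN4IP1, TCF7L2, SH3BGR, FAM98A, DPYSL2 and RARB. Of these RARB, a retinoic acid receptor, also had 4 gained regions, the tallest at 44.3 and 76.2 in hDE, and of its lost ones the taller had 16.6 and 22.1 in hESC and the other 13.7 and 27.1 in hESC. At LHX9, a LIM homeobox gene with no gained region, the taller lost one had 21.8 and 19.7 in hESC. Regions of both classes were found at 246 genes.

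Gained regions also lay near each other. With gaps of at most 50 kb, 30 groups of 4 or more gained regions formed and none of lost regions, and 69.8% of gained regions had no other within that gap, against 93.3% of lost ones. Gained regions were the more frequent class, and the part of that in the grouping was not tested. The longest group had 7 regions at DDX18 and CCDC93, on chromosome 2 from 117851982 to 118005806. Groups of 6 lay inside NRG1, a growth factor gene on chromosome 8, and on chromosome 6 from 126889374 to 127013967.

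Of the 5 tallest gained and the 5 tallest lost regions, TVP23B, ARHGEF38 and SFRP2 had 1 each at 2442, 2509 and 829 bp from a start, and the other 7 lay between 31180 and 729822 bp away. The tallest gained region was found on chromosome 18 from 55748063 to 55749116, 112106 bp from the nearest start, with 66.8 and 112 in hDE. The next lay on chromosome 5 from 13213914 to 13214866, 729822 bp from any start, with 63.5 and 109 in hDE. The other 3 of the top 5 stood at 60.0 and 77.8 in TVP23B, at 57.2 and 75.6 in MYRFL and at 56.1 and 83.9 on chromosome 12 from 42921773 to 42922888 in hDE. The 5 tallest lost regions were lower over background, with 35.5 and 40.5 at COXFA4, 35.1 and 44.4 at SFRP2, 34.6 and 69.3 on chromosome 5 from 126057032 to 126057638, 32.2 and 48.1 in ARHGEF38 and 31.3 and 44.2 near NUF2 in hESC.

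Among regions with a peak in all 4 libraries, the largest difference lay on chromosome 14 from 62168335 to 62169474, with 44.3 and 81.1 in hDE, against 3.32 and 3.46 in hESC (log2 difference 4.22, SE 0.46, limma adjusted p = 1.34e-15). These hESC heights were the lowest summits in the peak lists of their libraries, so the region was barely above the limit for a peak in hESC. The other 7 of the 8 largest ran down to 3.91, and FSHR, CCDC179, NEBL and TDRD15 were the genes near 4 of them. The FSHR region stood at 46.1 and 88.4 in hDE, against 3.79 and 3.68 in hESC, also close to the lowest summits of the hESC libraries. In the other direction the largest difference lay inside NEGR1, a neuronal adhesion gene, with 4.15 and 4.16 in hDE, against 40.8 and 47.6 in hESC (log2 difference −3.33, SE 0.46, limma adjusted p = 4.07e-10). The 8 largest lower differences ended at −2.95, near the glucose transporter gene SLC2A1, with 8.95 and 7.30 in hDE, against 39.8 and 109 in hESC (called on the height scale alone), and FAM124A (−3.12) and SENP7 (−3.09) lay near others.

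Few promoters lay under a gained, lost, higher or lower region. Of 22132 promoters of 15812 genes in the RefSeq table, taken as the 250 bases before the start, 21 lay under a gained region (0.0949%), 19 under a lost one (0.0858%), 69 under a higher one (0.312%) and 92 under a lower one (0.416%), whereas 11450 lay under a stable one. The promoters of these classes had lower median CpG ratios than those under stable regions. The median ratio of observed to expected CpG was 0.12 under gained, 0.21 under lost, 0.63 under higher and 0.47 under lower regions, against 0.84 under stable regions and 0.71 over all promoters. The median GC content was 47.2% under gained, 56.4% under lost, 56.0% under higher and 62.4% under lower regions, against 65.6% under stable regions and 62.0% over all. The promoters of CER1, SP5, EPSTI1 and CLDN4 are printed because they show different motif content under regions that changed height. They are from RefSeq (GRCh38.p14), run in the direction of the gene up to the base before its start, and have the matches to the motifs searched in capitals.
CER1 (chr9:14722734-14722983, minus strand, higher in hDE): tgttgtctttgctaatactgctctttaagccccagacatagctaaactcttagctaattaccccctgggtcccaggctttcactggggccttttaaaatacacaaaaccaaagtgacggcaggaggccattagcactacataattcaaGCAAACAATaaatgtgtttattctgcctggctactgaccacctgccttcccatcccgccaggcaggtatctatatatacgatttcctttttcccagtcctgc
SP5 (chr2:170715087-170715336, plus strand, higher in hDE): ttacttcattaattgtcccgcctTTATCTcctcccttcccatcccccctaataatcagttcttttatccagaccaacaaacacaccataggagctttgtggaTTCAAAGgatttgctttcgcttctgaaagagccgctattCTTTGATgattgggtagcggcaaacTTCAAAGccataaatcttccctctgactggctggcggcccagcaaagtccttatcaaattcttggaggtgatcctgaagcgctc
EPSTI1 (chr13:42992242-42992491, minus strand, higher in hDE): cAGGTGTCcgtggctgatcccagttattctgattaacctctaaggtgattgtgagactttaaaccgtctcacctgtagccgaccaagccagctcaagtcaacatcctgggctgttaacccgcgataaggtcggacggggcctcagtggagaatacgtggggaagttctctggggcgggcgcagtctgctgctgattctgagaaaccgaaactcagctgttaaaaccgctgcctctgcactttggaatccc
CLDN4 (chr7:73830746-73830995, plus strand, lower in hDE): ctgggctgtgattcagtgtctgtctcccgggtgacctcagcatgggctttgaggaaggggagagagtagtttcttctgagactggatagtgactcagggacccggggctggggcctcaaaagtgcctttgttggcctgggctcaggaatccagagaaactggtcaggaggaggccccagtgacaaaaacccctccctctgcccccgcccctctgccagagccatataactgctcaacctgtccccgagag

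The capitals in the CER1 promoter are a FOX and a SOX match that share bases. The CER1 region over it, on chromosome 9 from 14722297 to 14723140, reached 38.4 and 62.6 in hDE, against 11.8 and 29 in hESC (log2 difference 1.48, SE 0.45, limma adjusted p = 0.014), and the call was lost without either hESC library. SP5, a zinc finger gene switched on by WNT signals, has 1 GATA match and 3 TCF matches. The SP5 region stood at 37.8 and 47.6 in hDE, against 12.8 and 20.6 in hESC (log2 difference 1.46, SE 0.44, limma adjusted p = 0.015, lost without hDE replicate 1, hESC replicate 1 or hESC replicate 2). EPSTI1, an interferon-induced gene, has 1 T-box match, and its region stood at 38.4 and 59.7 in hDE, against 9.00 and 14.3 in hESC (log2 difference 2.16, SE 0.44, limma adjusted p = 6.22e-05), a call that held with each library left out. On the fold scale none of the calls over the CER1, SP5, EPSTI1 and CLDN4 promoters was made. The CLDN4 promoter has no match, and its region stood at 5.90 and 5.16 in hDE, against 14.7 and 37.7 in hESC (log2 difference −2.01, SE 0.48, limma adjusted p = 8.18e-04, lost without hDE replicate 2 or hESC replicate 2).

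The motifs searched on both strands were AGATAA for GATA factors, TGTTTAC or alternatively TGTTTGC for FOX factors, AACAAT or alternatively ACAATG for SOX factors, AGGTGTG or alternatively AGGTGTC for T-box factors and CTTTGAA or alternatively CTTTGAT for TCF factors. The octamer motif ATGCAAAT was searched in the same way, as were GTCTAGAC or alternatively CAGACAG for SMAD factors, and the TATA box letters TATAAA were searched on the strand of the gene. GATA letters were in 17.4% of promoters under higher regions, in 3 of 21 under gained ones and in 3 of 19 under lost ones, against 3.26% under lower regions, 3.81% under stable regions and 7.08% of all. SOX letters were in 17.4% under higher regions, in 8 of 21 under gained ones and in 5 of 19 under lost ones, against 6.79% under stable regions and 11% of all. TCF letters were in 10.1% under higher regions, against 4.91% of all, and FOX letters in 5.80%, against 5.10% of all. T-box letters were in 12% under lower regions, in 3 of 21 under gained ones and in 5.80% under higher ones, against 6.12% of all. FOX and SOX letters can overlap, several of the motifs are rich in A and T as the promoters of these classes also were relative to stable ones, and these matches are a description of letters and not of binding.

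MicroRNA genes, whose short RNAs repress messengers through the seed (bases 2 to 8), also had regions of these classes nearby. Of 855 hairpins with a region within 5 kb, 34 had a gained one (3.98%), 15 a lost one (1.75%), 10 a higher one (1.17%) and 19 a lower one (2.22%). The microRNAs below were chosen after their values were seen. Their mature sequences follow from RefSeq (GRCh38.p14), 5′ to 3′ with the seed in capitals, to show which share a seed.
hsa-miR-375-3p: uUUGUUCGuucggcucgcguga
hsa-miR-302a-3p: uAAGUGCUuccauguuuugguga
hsa-miR-302b-3p: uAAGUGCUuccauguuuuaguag
hsa-miR-367-3p: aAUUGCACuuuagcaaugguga
hsa-miR-92b-3p: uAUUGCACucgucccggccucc
hsa-miR-429: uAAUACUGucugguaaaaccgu
hsa-miR-200b-3p: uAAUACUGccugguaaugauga
hsa-miR-205-5p: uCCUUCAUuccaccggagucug
hsa-miR-135b-5p: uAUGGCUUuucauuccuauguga

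MIR375, a microRNA of the endocrine pancreas, had a higher region 808 bp from its hairpin, on chromosome 2 from 218999017 to 219000837. It reached 50 and 47.6 in hDE, against 11.8 and 13.0 in hESC, well apart (log2 difference 2.05, SE 0.44, limma adjusted p = 1.61e-04), and the call was lost without hESC replicate 2 and on the fold scale, where the difference was 0.57. The region over the MIR375 hairpin itself was not called (51.7 and 48.0 in hDE, against 20.9 and 30.1 in hESC, limma adjusted p = 0.128). The cluster of MIR302A, MIR302B, MIR302C, MIR302D and MIR367, active in pluripotent cells, had 3 fitted regions within 5 kb of its hairpins. Their log2 differences were 0.46, 0.41 and −0.23, and none was called. Another region of the cluster, on chromosome 4 from 112651121 to 112651513, stood at 19.0 and 23 in hDE with no peak in hESC, and was not strict in both hDE libraries. The fitted one nearest MIR302B, 60 bp from the hairpin, stood at 39.5 and 33.1 in hDE, against 24.2 and 34.2 in hESC, and the stages overlapped. The miR-302 members printed share a seed, and miR-367 shares its own with miR-92b.

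MIR429, which shares its seed with miR-200b of the family that maintains epithelia, had a lower region 4333 bp from its hairpin. That region lies over a start of another gene, TTLL10. It stood at 10.7 and 5.54 in hDE, against 26.1 and 49.1 in hESC (log2 difference −2.14, SE 0.45, limma adjusted p = 1.06e-04, lost without hDE replicate 2 and on the fold scale). MIR135B had a lost region 138 bp from its hairpin, with 26.5 and 66.7 in hESC, and MIR92B had one 862 bp away, with 23.7 and 52.2 in hESC, while the region that overlaps the MIR92B hairpin was stable. MIR205, an epithelial microRNA, had a lost region 989 bp away, with 16.6 and 29.7 in hESC, and it had peaks of 52.3 and 37.9 in hAFE. At MIR181A1 and MIR181B1, which lie side by side, 2 regions were gained, at 9.39 and 37.8 and at 9.39 and 22.7 in hDE.

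Many regions gained in hDE had no peak later. A peak was found in both hAFE libraries at 37.2% of gained regions and in the hPFE library at 23.7%, and 2580 gained regions (36.6%) had none in any of the 3 later libraries, while 1050 (14.9%) had one in all 3. Of lost regions 53.0% had no later peak, and 8.29% had one in all 3, against 90.7% of stable regions. Over all regions, 63.9% had a peak in both hAFE libraries and 12.4% had none later. All regions include the strict regions of the later libraries, which have a later peak by construction. These shares are therefore not a neutral base for those of gained and lost regions. Both hAFE libraries had a peak at 76.4% of regions higher in hDE and at 69.5% of those lower in hDE, against 87.3% of all fitted regions. The later libraries are not marked as re-analysed from the earlier series, so the stage and the source of the data cannot be told apart in these shares. Among the tallest gained regions, the one on chromosome 18 from 55748063 to 55749116 stood at 6.76 and 2.86 in hAFE, and the one in TVP23B at 89.2 and 17.9 in hAFE, against 60.0 and 77.8 in hDE.

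**Figure D5:**
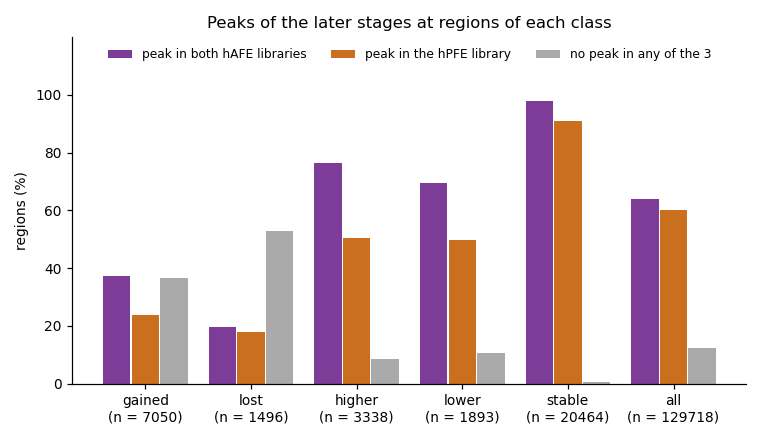
Percent of regions of each class with a peak in both hAFE libraries, with a peak in the hPFE library and with no peak in any of the 3 later libraries. Gained and lost regions have no later peak in 36.6% and 53.0% of cases, and stable regions have a peak in both hAFE libraries in 98.1%.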

How the data were processed

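ATAC-seq was measured in 4 libraries of H1 cells, 2 of hDE and 2 of hESC, grouped by sample title. The submitters' processing notes name the build hg38 and the tool DiffBind. The deposited file names record adapter trimming, removed duplicate and mitochondrial reads, transposase cut sites, a p limit of 0.01 and at most 300000 peaks. The aligner and peak caller were not given in the sources used here. Each deposited peak of the authors carries a fold enrichment (ratio) over local background with its −log10 p and −log10 q, called per library and not pooled.

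Fold and −log10 p gave a whole-number summit in 100% of peaks (within 0.001 of −log10 p), and the most frequent background of the weaker peaks gave the genome-wide background. Peaks of 1 library that overlapped by 1 bp were merged and ranked by −log10 p, and the top 50000 on chromosomes 1 to 22 and X were strict. Regions were assigned to the nearest start of 19974 protein-coding genes within 100 kb, from the RefSeq promoter table for 15812 genes and either gene end for the other 4162. Heights were tested with limma 3.58.1 (trend) in R 4.3.3 with Benjamini-Hochberg adjustment, and the fit was tested on simulated data. Exons and introns were not told apart.

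The members and the 16 gene lists (306 genes) were chosen with earlier results of these data known. Named genes are the 15 stage markers, the top 10 by gained regions and the top 10 by lost regions, the 5 tallest regions of each class, the 8 largest differences in each direction, and list genes with at least 2 gained or 2 lost regions. Other genes and all microRNAs were named after their values were seen. Results at 2 genes are not reported here.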

Additional observations from a re-analysis of the deposited data

How the results depend on the processing

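With 25000 strict regions per library 2464 were gained and 287 lost, with 100000 it was 17337 and 6717, and at a −log10 q limit of 5 it was 18656 and 4907. Near a start lay 1.67% of gained regions at that q limit, 2.5% of gained and 10.2% of lost regions at 10 times the background, 5.84% and 6.82% with 5 kb in place of 1 kb, and 1.66% and 3.48% with either gene end. In hDE replicate 1 against hESC replicate 2, 9915 were gained, 1.53% of them near a start, and 6598 lost. Fewer libraries set fewer conditions here and in the gained and lost counts that follow, so a rise says little by itself. Leaving out each library gave 8088 to 12929 gained and 2266 to 4322 lost regions, of which 0.982% to 1.45% and 2.54% to 3.84% lay near a start. It gave 1354 to 2744 higher and 491 to 1872 lower regions.

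The background alone gave 97 higher and 4 lower regions, near-start centring 1967 and 1591, the deposited fold 1483 and 1012, and missing values set at the lowest summit 20360 and 7414. The replicate block gave 2729 and 1258; replicate numbers mark no shared origin in the labels, and the differences of replicate 1 minus 2 correlated at −0.0985 between the stages. On the fold scale the sign turned at CER1 (−0.62), EOMES (−0.77), SOX17 (−0.52) and BMP2 (−0.37). Quantile normalization, a filter on weak regions and no trend stayed within 1.5 times. The cause was not tested. Of 191 named regions called higher or lower (188 and 3 near microRNAs), 60 kept their call with each library left out and 12 under every alternative.

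The log2 ratio of strict regions per library moved as follows, with 25000 and 100000 strict regions: mesendoderm 0.91 and 0.22, endoderm factors 0.88 and 0.0976, adhesion 0.45 and 0.0928, mesoderm 0.34 and −0.15, extraembryonic endoderm 0.91 and 0.20, foregut 0.42 and −0.12. At 100000 it was 0.57 for surface markers and −0.0708 for WNT, and at 25000 −0.25 for FGF. With genes within 50 kb it was −0.0209 for BMP, 0.0857 for adhesion and 0.0406 for mesoderm.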

Other observations

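Gained regions were spread unevenly over the chromosomes. They made up 6.89% of the regions of chromosome 4, 6.79% of X and 6.71% of chromosome 13, and 1.28% of chromosome 19, 1.51% of chromosome 22 and 3.27% of chromosome 17, against 5.43% over all. Chromosomes 19, 17 and 22 had 34.9%, 21.8% and 20.6% of their regions within 1 kb of a gene start, against 8.6% on chromosome 4 and 19.4% on X. Lost regions ran from 0.559% of the regions of chromosome 20 and 0.561% of chromosome 17 to 1.47% of those of chromosome 4.

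The largest differences at promoters lay at genes outside the lists, chosen here after their values were seen. These differences were not examined with a library left out or on the fold scale. The promoter of ACSL1, a gene of fatty acid activation, lay under a region at 35.8 and 46.7 in hDE, against 4.74 and 8.01 in hESC (log2 difference 2.81). The promoters of GNB5, a G protein subunit gene, and ANKRD1, a muscle and stress gene, lay under regions with differences of 2.72 and 2.5. In the other direction, the region over the promoter of GNG2, another G protein subunit gene, stood at 3.71 and 5.29 in hDE, against 24.6 and 49.1 in hESC (log2 difference −2.90), and that of ANK2, an ankyrin gene, differed by −2.74.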
